A study of Mus musculus with 9 samples.

Results

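Ribosome biogenesis genes encode the nucleolar proteins that make, modify, cleave and assemble ribosomal RNA. A list of 38 such genes, named with earlier results of these data known, was taken from a table of 56860 mouse genes counted in 9 RNA-seq libraries. All 38 were found in the table. The libraries were made from RNA of cells labelled as CD4+ T cells of the spleen and fell into 3 groups of 3. One group was labelled control, another CIA, and the third was CIA treated with luteolin, which is a flavone made by many plants. The study's title names rheumatoid arthritis and Th17 differentiation. The labels give neither the strain, age, allele nor dose, do not spell out CIA, and do not state whether libraries of 1 group came from separate animals, so the p-values measure the spread between these libraries, which may be technical. All 38 genes passed the filter on low counts, which 19348 genes passed.

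Ribosomes are built in the nucleolus. RNA polymerase I transcribes a long precursor RNA, small nucleolar ribonucleoproteins (snoRNPs) guide its methylation, pseudouridylation and cleavage, the small subunit processome folds and cuts the part that becomes the small subunit, and a separate series of factors matures the large subunit. T cells leaving quiescence are known to enlarge their nucleoli and raise ribosome production before they divide. The 38 genes were arranged by role, with 7 in the RNA polymerase I and nucleolar class, 8 in the snoRNP class, 10 in the small subunit class and 13 in the large subunit class.

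Levels are given as counts-per-million (CPM), that is, a gene's count relative to the total of its library, after scaling by trimmed means of M values (TMM). The libraries held from 31234177 to 41815573 counts, with scaling factors from 0.950 to 1.02. No pair of libraries of 1 group was alike within sampling noise, the lowest chi-square per degree of freedom being 5.51. The CIA libraries differed most among themselves, with 32.2 between replicates 1 and 2 and 114 between replicates 1 and 3. The labelled cell type was checked against markers. The control libraries went against it at Cd4, and all 3 groups held high levels of markers of other cell types. Cd4 stood at 3.65, 2.46 and 2.66 CPM in the control libraries, at 82.1, 151 and 150.3 in the CIA libraries and at 106, 106 and 98.5 in the luteolin libraries. The groups are therefore called by their labels, and every difference from control below is a difference from libraries almost without Cd4 transcripts. Other cell types also differed: the summed level of 16 T cell markers ranged from 528 to 598 CPM in control, from 800.2 to 1212 in CIA and from 847 to 892 with luteolin, and that of 15 neutrophil markers from 2297 to 2640.2, from 7209 to 12034 and from 8998 to 9441. B cell markers (12 genes) summed to between 4892 and 5111, between 1820.0 and 4311, and between 4280.2 and 4853 CPM. Ighm, the heavy chain gene of immunoglobulin M, made up much of that sum at 2677, 2542 and 2691 CPM in control, 2394, 1866 and 1494 in CIA and 4345, 3689.6 and 4100.3 with luteolin, and was the 1 B cell marker higher with luteolin than in control (0.62 ± 0.14 on the log2 scale; adjusted p = 0.00456), while the other 11 were lower (median of the 12, -2.22). In every library of each group, the neutrophil sum and the B cell sum lay above the T cell sum. Ighm alone was above the T cell sum in each library, so the B cell order does not speak for the other 11 markers. S100a9, a neutrophil marker, averaged 1648 CPM in control, 6744 in CIA and 3971 with luteolin. Sums over lists of different genes do not give shares of cells. In the control libraries Epb42 of the erythroid list and Tnfrsf17 of the plasma cell list had no count, and no other marker was at 0 in all libraries of a group.

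The motif CACGTG is the canonical E-box, known as a binding sequence of Myc and its partner Max, the textbook regulators of ribosome production. It reads the same on both strands. It was looked for in the RefSeq promoters of build GRCm38.p6, each reaching from 250 bases before to 50 bases after a gene's start. Promoters were matched for 33 of the 38 genes, and 7 of these 33 (21.2%) held the motif, against 1957 of 27025 promoters in the whole table (7.24%). The 5 genes with no matched promoter were Rrs1, Fbl, Npm1, Bop1 and Rrp12. The match is a description of letters and not of binding. The 7 stretches are shown because they are the sequence feature that the gene list did not use, each 5′ to 3′ on the gene's strand with the motif in capitals and at most 10 bases on either side.
Nop2 (chr6:125131813-125131838, plus strand): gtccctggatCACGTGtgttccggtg
Pes1 (chr11:3963967-3963992, plus strand): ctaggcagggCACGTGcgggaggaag
Utp20 (chr10:88826765-88826787, minus strand): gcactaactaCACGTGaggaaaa
Utp18 (chr11:93885771-93885796, minus strand): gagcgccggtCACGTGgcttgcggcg
Wdr43 (chr17:71616222-71616247, plus strand): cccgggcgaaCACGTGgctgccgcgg
Rpf2 (chr10:40246990-40247015, minus strand): gtaatcggtaCACGTGcattcgctaa
Mybbp1a (chr11:72441357-72441376, plus strand): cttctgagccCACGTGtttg

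The motif began 60 bases before the gene start in Nop2 and 20 bases before it in Utp18, and in the other 5 genes it began after the start, from base 3 in Pes1 to base 41 in Mybbp1a. Among other lists, it was found in 10 of 39 matched promoters of other small subunit factors (25.6%), in 7 of 41 of other large subunit factors (17.1%) and in 5 of 58 of cytosolic ribosomal proteins (8.62%). The Myc network had it in 4 of 11 (36.4%) and the RNA polymerase I machinery in 2 of 14 (14.3%). For the nuclear exosome it was 1 of 12 (8.33%) and for cell division genes 2 of 31 (6.45%).

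Per kilobase of exon, the levels of the 38 genes covered a wide range. Npm1, which encodes the nucleolar chaperone nucleophosmin, had the highest level per length in control at 731 CPM per kilobase, and Ncl, which encodes nucleolin, followed at 592. Nop14 stood at 159 and Ddx21 at 109. The lowest were Polr1b, a catalytic subunit of RNA polymerase I, at 2.21, and Nop10, a small snoRNP protein, at 3.32. Npm1 and Ncl together made up most of the summed level, so sums are also given without them.

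In CIA, most ribosome biogenesis genes were lower than in control. The summed level of the 38 genes was 13672, 12374 and 11512 CPM in the control libraries, 9082, 7443 and 7553 in the CIA libraries, and 10237, 9948 and 9962 in the luteolin libraries. The groups did not overlap, and the luteolin libraries lay between the other two groups. Without Ncl and Npm1 the sums were 4787, 4520 and 4311 CPM in control, 3770.1, 3330.0 and 3384 in CIA, and 3873, 3719 and 3721 with luteolin, and here CIA replicate 1 overlapped the luteolin libraries. In bulk RNA, fewer cells with active nucleoli and less of these transcripts per cell cannot be told apart.

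**Figure D1:**
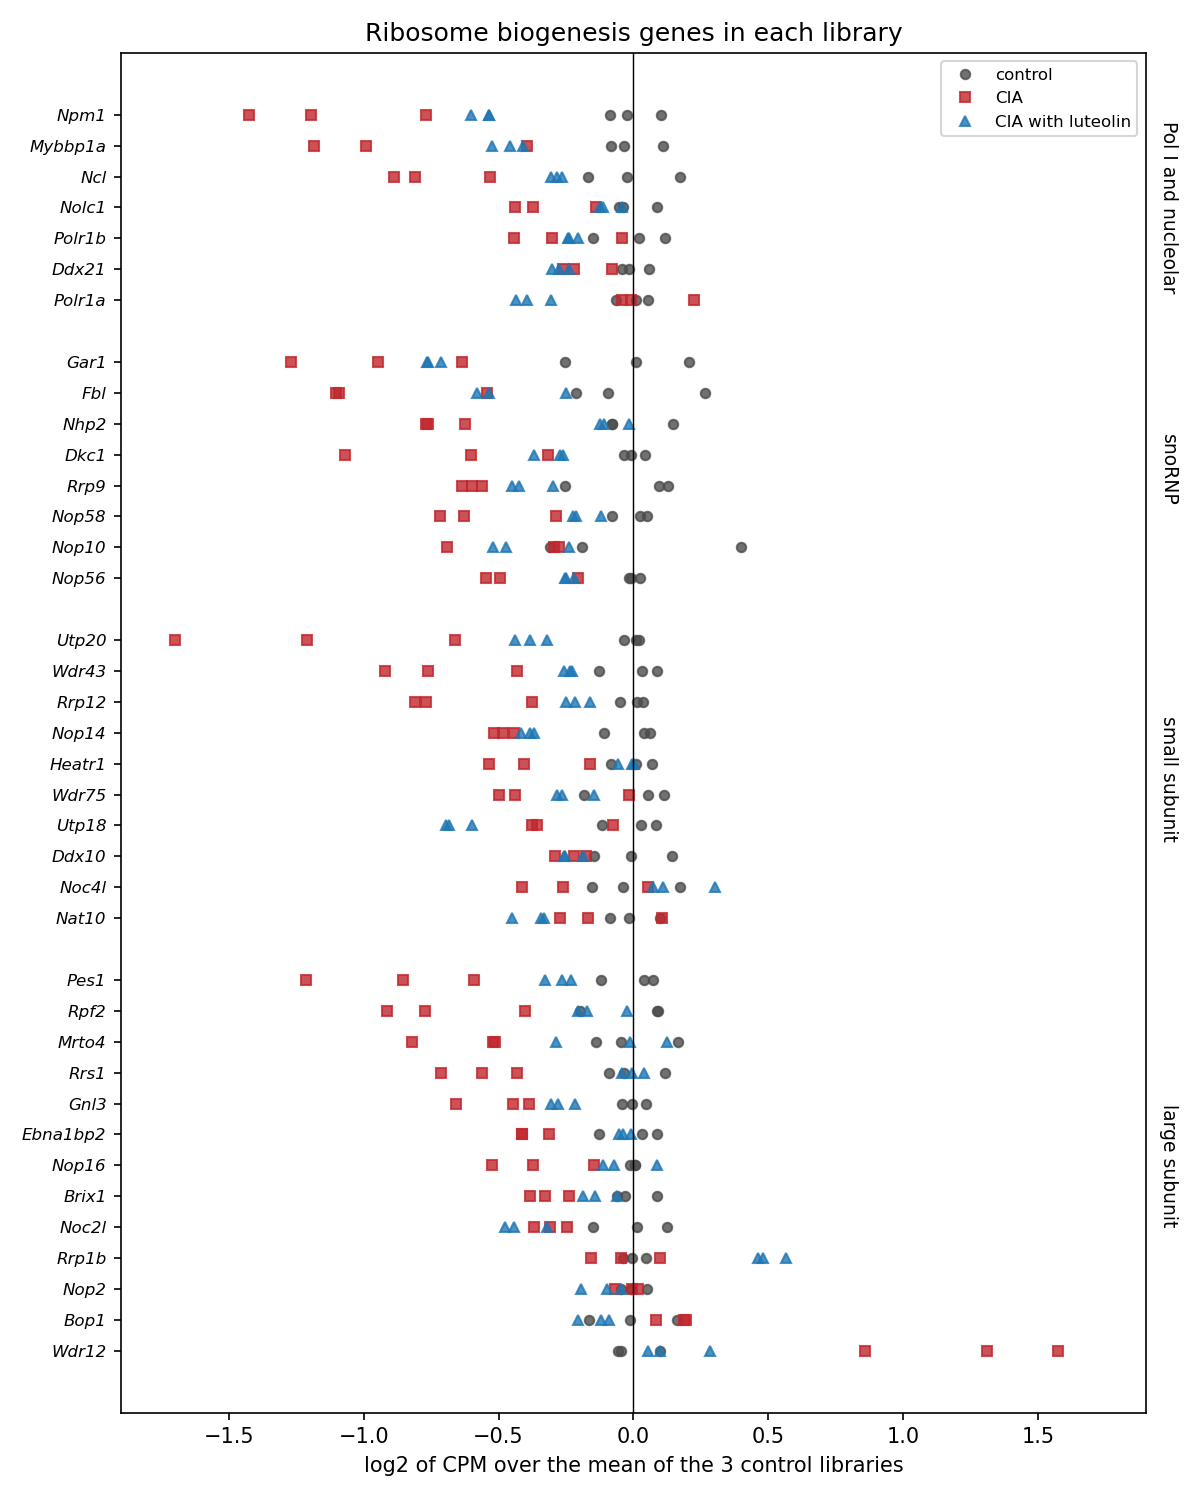
Level of each ribosome biogenesis gene in each of the 9 libraries, as log2 of CPM over the mean of the 3 control libraries (horizontal axis), with genes arranged by role (vertical axis). Circles are control, squares CIA and triangles CIA with luteolin; most CIA squares lie left of the zero line, whereas Wdr12 lies to the right in CIA and Rrp1b to the right with luteolin.

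Between CIA and control, 28 of the 38 genes were lower, 1 was higher and 9 did not pass the test (edgeR's quasi-likelihood test with Benjamini-Hochberg adjustment over all 19348 tested genes, threshold 0.05). Of all tested genes, 24.5% were lower and 26.6% higher, or 51.1% in either direction. The list was chosen with earlier results of these data known, so its counts beside such shares, here and below, are descriptions and not independent evidence. The median log2 fold change of the 38 genes was -0.41, a change of -24.7%, beside -0.01 over all tested genes. The 3 CIA libraries all lay below the 3 control libraries for 27 genes and all above for 1, and the background of such separation was 29.1% lower and 29.7% higher. Lower calls were made for 7 of 8 snoRNP genes, 5 of 7 RNA polymerase I and nucleolar genes, 7 of 10 small subunit genes and 9 of 13 large subunit genes. Leaving out 1 library at a time gave between 23 and 29 lower calls and 1 higher call, and the calls of 23 of the 28 lower genes were kept in every such refit. Over all tested genes, between 40.6% and 55.4% were called in these refits.

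Luteolin libraries were compared with CIA libraries, from which they also differed in markers of other cell types. Here 16 of the 38 genes were higher, 4 were lower and 18 did not pass the test, against 23.1% higher and 24.2% lower of all tested genes (47.3% either way). The median log2 fold change was 0.27, a change of 20.4%, beside -0.04 over all tested genes. Groups were separated upwards for 21 genes and downwards for 5, with a background of 28% and 27.7%. The 4 lower genes were Wdr12, Bop1, Utp18 and Polr1a. The count depended on single libraries: without CIA replicate 1 there were 23 higher calls and a median of 0.37, and without CIA replicate 2 there were 12 higher calls. Over all tested genes, 49.5% were called without CIA replicate 1 and 39.5% without CIA replicate 2, beside 47.3% in the main fit.

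Luteolin libraries were also set against control, which shares its libraries with both other comparisons. There 14 of the 38 genes were lower, 1 was higher and 23 did not pass the test, against 20.8% lower and 24.2% higher of all tested genes (45% either way). The median log2 fold change was -0.24, a change of -15.1%, beside -0.01 over all tested genes. Groups were separated downwards for 24 genes and upwards for 1, against 30.9% and 32.3% of all tested genes. These calls were the least stable of the 3 comparisons: leaving out 1 library gave 6 to 13 lower calls, with 6 without luteolin replicate 2, 7 without control replicate 1, 8 without control replicate 2, 8 without luteolin replicate 3, and 9 without luteolin replicate 1. The share called over all tested genes also fell in these refits, from 45% to between 34.1% and 37.7%. Without luteolin replicate 2, 61.6% of the calls over all genes were higher, beside 53.8% in the main fit. Of the 14 lower calls, 5 (Npm1, Nop14, Utp18, Noc2l and Gar1) were kept in every such refit, as was the higher call of Rrp1b.

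**Figure D2:**
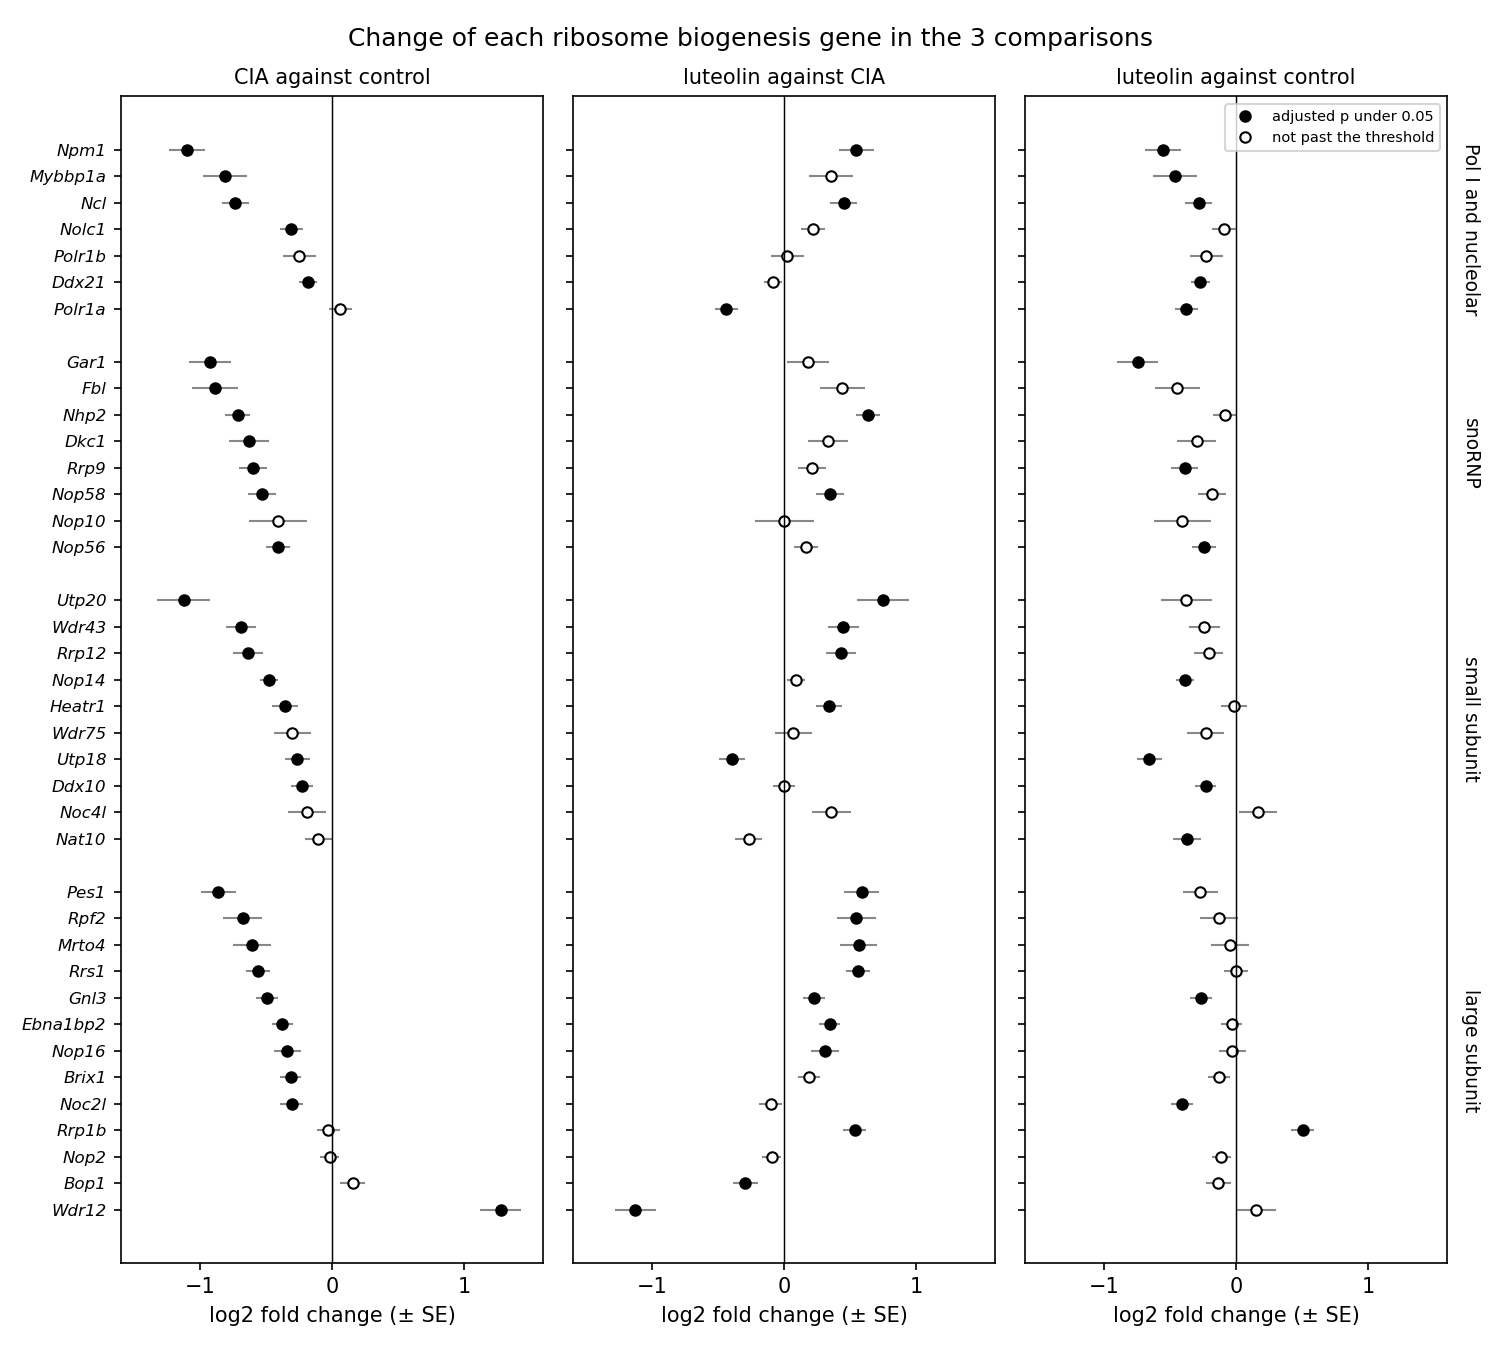
Log2 fold change (horizontal axis, with its standard error as a bar) of each ribosome biogenesis gene (vertical axis) in the 3 comparisons, 1 panel each. Filled circles passed the adjusted p threshold of 0.05 and open circles did not; 28 genes are filled on the lower side in CIA against control, 16 on the higher side in luteolin against CIA and 14 on the lower side in luteolin against control.

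Among the RNA polymerase I and nucleolar genes, the 2 most abundant, Npm1 and Ncl, fell in CIA and rose with luteolin. Npm1 stood at 2091, 1916 and 1836 CPM in the control libraries, 1142, 851 and 726 in the CIA libraries and 1345, 1345 and 1284 in the luteolin libraries. No group overlapped another. The level was 2.15-fold lower in CIA than in control (log2 fold change -1.10 ± 0.14, SE, 3 libraries a group; adjusted p = 0.000134), rose with luteolin against CIA (0.55 ± 0.14; adjusted p = 0.00716) and was still below control (-0.56 ± 0.14; adjusted p = 0.00694). Ncl, whose product binds ribosomal RNA and its chromatin, stood at 6794, 5938 and 5364 CPM in control, 4169.9, 3262 and 3443 in CIA and 5018, 4884 and 4957 with luteolin. Its groups did not overlap either, and it fell in CIA (log2 fold change -0.73 ± 0.10; adjusted p = 0.000277) and rose with luteolin against CIA (0.45 ± 0.10; adjusted p = 0.00475). Its difference from control with luteolin, -0.28 ± 0.10 (adjusted p = 0.0443), lost its call without control replicate 1 (-0.19), control replicate 2 (-0.30), or any 1 of luteolin replicates 1 to 3 (-0.29, -0.22 and -0.28).

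Mybbp1a, which encodes a nucleolar Myb-binding protein, was at 322, 291 and 282 CPM in control, 227, 149.9 and 131 in CIA and 224, 217 and 207 with luteolin. CIA replicate 1 lay just above the luteolin libraries and the other 2 CIA libraries below them. The gene fell in CIA (log2 fold change -0.82 ± 0.17; adjusted p = 0.00235). Against CIA the luteolin value of 0.35 ± 0.17 did not pass the test (adjusted p = 0.103), but did without CIA replicate 1 (0.63; adjusted p = 0.000162). Against control the luteolin call (-0.46 ± 0.17; adjusted p = 0.042) was lost whichever of the 6 libraries was left out, with values from -0.50 without control replicate 3 to -0.40 without control replicate 1.

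Polr1a and Polr1b encode the 2 catalytic subunits of RNA polymerase I. Polr1a, the largest subunit, was at 145, 133 and 140.1 CPM in control and 138, 135 and 163 in CIA, which overlapped (log2 fold change 0.06 ± 0.09; adjusted p = 0.571). With luteolin it was at 113, 103 and 106 CPM, below all 6 other libraries. It was lower than in CIA (-0.44 ± 0.09; adjusted p = 0.00203) and lower than in control (-0.38 ± 0.09; adjusted p = 0.0051), the latter not without luteolin replicate 2 (-0.29; adjusted p = 0.0519). Polr1b, its partner in the catalytic core, was at 11.6, 13.01 and 13.9 CPM in control, 12.5, 10.4 and 9.43 in CIA and 10.8, 11.1 and 10.9 with luteolin, and passed no test; without CIA replicate 1 its CIA value of -0.25 became -0.37 and passed (adjusted p = 0.02).

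Ddx21, an RNA helicase that couples RNA polymerase I transcription to RNA processing, and Nolc1, a chaperone of snoRNPs, moved less. Ddx21 was at 586, 548 and 557 CPM in control, 533, 470.3 and 483 in CIA and 478, 458 and 465 with luteolin. Its fall in CIA was -0.19 ± 0.07 on the log2 scale (adjusted p = 0.0442) and lost its call without any 1 of control replicates 1 to 3 (-0.16, -0.21 and -0.20) or of CIA replicates 2 and 3 (-0.15 and -0.16). With luteolin it was below control (-0.27 ± 0.07; adjusted p = 0.00873), except without luteolin replicate 2 (-0.20). Nolc1 was at 245, 224 and 222 CPM in control, 209, 178 and 169.7 in CIA and 223, 211 and 213 with luteolin. Its fall in CIA (-0.31 ± 0.09; adjusted p = 0.0135) lost its call without control replicate 1 (-0.27) or CIA replicate 2 (-0.28), and its luteolin value against CIA (0.22 ± 0.09; adjusted p = 0.0642) passed without CIA replicate 1 (0.32).

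Of the snoRNP genes, 7 of 8 fell in CIA, with a median log2 fold change of -0.62 over the 8. The box H/ACA particle, which converts uridine to pseudouridine, is made of Dkc1, Gar1, Nhp2 and Nop10. Gar1 stood at 39.6, 34.6 and 28.8 CPM in control, 22.1, 17.8 and 14.2 in CIA and 20.2, 20.9 and 20.2 with luteolin. Both CIA and luteolin libraries lay below all control libraries and overlapped each other. Its level fell in CIA (log2 fold change -0.93 ± 0.16; adjusted p = 0.000854), differed from control almost as much with luteolin (-0.75 ± 0.16; adjusted p = 0.00314), and between luteolin and CIA the difference was 0.18 ± 0.16 (adjusted p = 0.381). Nhp2, a core protein of the same particle, was at 44.02, 37.7 and 37.6 CPM in control, 25.8, 23.3 and 23.4 in CIA and 36.8, 36.5 and 39.3 with luteolin. Its luteolin libraries overlapped control and lay above all CIA libraries. In CIA it fell (-0.72 ± 0.09; adjusted p = 0.000172), rose with luteolin against CIA (0.63 ± 0.09; adjusted p = 0.000314) and showed -0.08 ± 0.09 against control (adjusted p = 0.49). The difference between Gar1 and Nhp2 in their response was not tested.

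Dkc1, which encodes the pseudouridine synthase dyskerin, was at 89.9, 94.9 and 91.5 CPM in control, 73.9, 60.6 and 43.9 in CIA and 76.8, 76.2 and 71.4 with luteolin, with CIA replicate 3 lowest of the 9. It fell in CIA (log2 fold change -0.63 ± 0.15; adjusted p = 0.00547). Its luteolin value against CIA (0.33 ± 0.15; adjusted p = 0.0932) passed without CIA replicate 1 (0.52). Nop10, with 78 to 194 counts a library, had 4.85, 2.97 and 3.23 CPM in control, 3.002, 2.28 and 3.04 in CIA and 2.66, 2.57 and 3.12 with luteolin. Control replicate 1 stood above the rest, and Nop10 passed no test.

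The box C/D particle, which methylates ribosomal RNA, holds Fbl, the methyltransferase fibrillarin, and the core proteins Nop56 and Nop58. Fbl was at 125, 97.5 and 89.7 CPM in control, 71.3, 48.8 and 48.5 in CIA and 87.6, 69.6 and 71.9 with luteolin. In each group replicate 1 was the highest, and CIA replicate 1 lay among the luteolin libraries. Fbl fell in CIA (log2 fold change -0.89 ± 0.17; adjusted p = 0.00182), and its luteolin values of 0.44 ± 0.17 against CIA (adjusted p = 0.0566) and -0.45 ± 0.17 against control (adjusted p = 0.0552) did not pass; without CIA replicate 1 the former was 0.66 (adjusted p = 0.00304), and without control replicate 3 the latter was -0.54 (adjusted p = 0.0469). Nop58 was at 128, 126 and 117 CPM in control, 101, 75.3 and 80.1 in CIA and 114, 107 and 106 with luteolin, and fell in CIA (-0.53 ± 0.11; adjusted p = 0.00228). Its rise with luteolin against CIA (0.35 ± 0.11; adjusted p = 0.0219) was lost without CIA replicate 2 (0.27) or luteolin replicate 1 (0.32).

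Nop56 was at 188, 188 and 193 CPM in control, 164, 129.8 and 134 in CIA and 163, 159 and 159 with luteolin. Other genes, the small nucleolar RNA gene Snord57 among them, overlap 8.12% of its exonic sequence. The transcript was lower in CIA (log2 fold change -0.41 ± 0.09; adjusted p = 0.00374). Its luteolin value against CIA (0.17 ± 0.09; adjusted p = 0.154) passed without CIA replicate 1 (0.29), and its call against control (-0.24 ± 0.09; adjusted p = 0.0498) was lost whichever library was left out, at -0.18 without luteolin replicate 2 and between -0.25 and -0.23 otherwise. Rrp9, a protein of the snoRNP that guides precursor cleavage, was at 101, 98.7 and 77.5 CPM in control, 60.96, 59.5 and 62.6 in CIA and 68.9, 75.1 and 67.7 with luteolin. Its CIA libraries were within a narrow range and below all others. Its level fell in CIA (-0.60 ± 0.10; adjusted p = 0.000895), and with luteolin it was below control (-0.39 ± 0.10; adjusted p = 0.0107), a call lost without control replicate 1 (-0.32), control replicate 2 (-0.34) or luteolin replicate 3 (-0.36).

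Among the small subunit genes, Utp20, a large scaffold protein of the processome, had the largest fall of the 38 genes in CIA. It stood at 80.5, 79.9 and 77.4 CPM in control, 50.1, 34.3 and 24.4 in CIA and 60.9, 58.5 and 63.5 with luteolin. The control and luteolin libraries were tight and the CIA libraries spread, with replicate 1 nearest to the other groups. The fall in CIA was 2.18-fold (log2 fold change -1.13 ± 0.20; adjusted p = 0.000977), the rise with luteolin against CIA 0.75 ± 0.20 (adjusted p = 0.00978), and the luteolin libraries, all below control, differed from it by -0.38 ± 0.19 (adjusted p = 0.138).

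Rrp12, needed for the export and maturation of subunit precursors, was at 86.8, 85.4 and 81.8 CPM in control, 65.2, 49.7 and 48.3 in CIA and 75.8, 71.3 and 72.95 with luteolin. In CIA it fell (log2 fold change -0.64 ± 0.11; adjusted p = 0.000903) and rose with luteolin against CIA (0.43 ± 0.11; adjusted p = 0.00855). Wdr43, Wdr75 and Heatr1 belong to the processome module that joins the precursor during transcription. Wdr43 was at 276, 266 and 238 CPM in control, 193, 153 and 137 in CIA and 222, 217 and 221 with luteolin, and Heatr1 at 85.5, 80.1 and 88.96, 75.8, 63.97 and 58.6 and 84.6, 84.9 and 81.7 CPM. Both fell in CIA (Wdr43 -0.69 ± 0.12, adjusted p = 0.000718; Heatr1 -0.36 ± 0.10, adjusted p = 0.011) and rose with luteolin against CIA (Wdr43 0.45 ± 0.11, adjusted p = 0.00836; Heatr1 0.34 ± 0.10, adjusted p = 0.0153), where Heatr1 lost its call without CIA replicate 2 (0.32; adjusted p = 0.0537). Wdr75 was at 21.3, 20.4 and 17.3 CPM in control, 19.5, 13.9 and 14.5 in CIA and 17.8, 16.2 and 16.4 with luteolin, and its groups overlapped. Its CIA value of -0.30 ± 0.14 (adjusted p = 0.0934) became -0.48 and passed without CIA replicate 1 (adjusted p = 0.00495).

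Nop14 and Noc4l encode partner proteins of the processome. Nop14 was at 454, 447 and 403 CPM in control, 319.7, 304 and 311 in CIA and 336, 333 and 326 with luteolin. It fell in CIA (log2 fold change -0.48 ± 0.07; adjusted p = 0.000288) and was below control with luteolin (-0.39 ± 0.07; adjusted p = 0.00106), whereas luteolin and CIA differed by 0.09 ± 0.07 (adjusted p = 0.3). Noc4l was at 10.7, 9.89 and 12.4 CPM in control, 11.4, 8.25 and 9.16 in CIA and 11.6, 11.9 and 13.6 with luteolin. It passed no test, although without CIA replicate 1 its luteolin value against CIA went from 0.36 to 0.51 and passed (adjusted p = 0.00959).

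Utp18, a subunit of another processome module, was lower in each of the 3 comparisons. It stood at 109.9, 106 and 95.8 CPM in control, 81.1, 80.1 and 98.5 in CIA and 68.6, 64.2 and 64.6 with luteolin. CIA replicate 3 overlapped control, and all luteolin libraries lay below the other 6. The fall in CIA, -0.26 ± 0.10 on the log2 scale (adjusted p = 0.0418), was not stable: it lost its call without control replicate 1 (-0.23), control replicate 2 (-0.26), CIA replicate 1 (-0.22) or CIA replicate 2 (-0.21), and under DESeq2 (-0.25; adjusted p = 0.0576). With luteolin Utp18 was lower than in CIA (-0.39 ± 0.10; adjusted p = 0.00689), except without luteolin replicate 2 (-0.33; adjusted p = 0.0542), and lower than in control (-0.66 ± 0.10; adjusted p = 0.000376).

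Nat10, which acetylates cytidines of the small subunit RNA, was at 77.8, 71.7 and 68.5 CPM in control, 64.6, 60.1 and 78.2 in CIA and 57.8, 53.2 and 57.2 with luteolin. CIA overlapped control, and the luteolin libraries were the lowest. Against control the luteolin value was -0.37 ± 0.10 (adjusted p = 0.0136), a call lost without control replicate 1 (-0.32) or luteolin replicate 2 (-0.28). Against CIA it was -0.27 ± 0.10 (adjusted p = 0.0534) and passed without CIA replicate 1 (-0.30) or CIA replicate 2 (-0.34), and CIA against control (-0.10) passed without CIA replicate 3 (-0.22). Ddx10, a helicase of the processome, was at 260.2, 234 and 213 CPM in control, 209, 203 and 193 in CIA and 207, 198 and 197 with luteolin. Its differences from control, -0.23 ± 0.08 in CIA (adjusted p = 0.0389) and -0.23 ± 0.08 with luteolin (adjusted p = 0.0403), were close to the threshold. The CIA call was lost without control replicates 1 or 2 or CIA replicates 2 or 3 (-0.16, -0.24, -0.23 and -0.19). The luteolin call was lost without control replicates 1 or 2 or luteolin replicates 1, 2 or 3 (-0.16, -0.24, -0.25, -0.17 and -0.21).

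The large subunit genes held the 1 gene called higher in CIA, Wdr12, and the 1 called higher with luteolin against control, Rrp1b. Pes1, Bop1 and Wdr12 encode the 3 subunits of the PeBoW complex, which is needed for processing of the large subunit RNA. Wdr12 stood at 52.4, 51.996 and 58.04 CPM in control, 98.3, 134 and 161 in CIA and 57.98, 56.3 and 65.9 with luteolin. All CIA libraries lay above the other 6, and luteolin overlapped control. It was 2.42-fold higher in CIA than in control (log2 fold change 1.28 ± 0.15; adjusted p = 0.000116), was lower with luteolin than in CIA (-1.13 ± 0.15; adjusted p = 0.000194) and showed 0.15 ± 0.15 against control (adjusted p = 0.454). The gene spans chr1:60108944-60137804 on the minus strand in the coordinates of the deposited table, build mm39 per the submitters' processing notes, and shares 61 exonic bases (0.51%) with Carf on the opposite strand.

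Pes1 went the other way. It stood at 232, 227 and 203 CPM in control, 147, 122 and 95.1 in CIA and 184, 188 and 176 with luteolin, and no groups overlapped. The transcript was lower in CIA (log2 fold change -0.86 ± 0.13; adjusted p = 0.000456) and rose with luteolin against CIA (0.59 ± 0.13; adjusted p = 0.00422). Bop1 was at 39.7, 35.8 and 44.8 CPM in control, 45.7, 42.5 and 45.95 in CIA and 37.6, 34.8 and 36.9 with luteolin. CIA overlapped control (0.16 ± 0.10; adjusted p = 0.19), and luteolin was below CIA (-0.29 ± 0.10; adjusted p = 0.0262), a call lost without any 1 of luteolin replicates 1 to 3 (-0.31, -0.21 and -0.29).

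Rrp1b, a nucleolar protein of large subunit precursors, was the only one of the 38 genes called higher with luteolin against control. It stood at 40.5, 42.03 and 39.6 CPM in control, 39.5, 43.6 and 36.5 in CIA and 60.3, 56.8 and 56.1 with luteolin. Control and CIA overlapped, and all luteolin libraries lay above them. The log2 fold change was 0.53 ± 0.09 against CIA (adjusted p = 0.000583) and 0.50 ± 0.09 against control (adjusted p = 0.000919), and both calls were kept in every refit without 1 library.

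**Figure D3:**
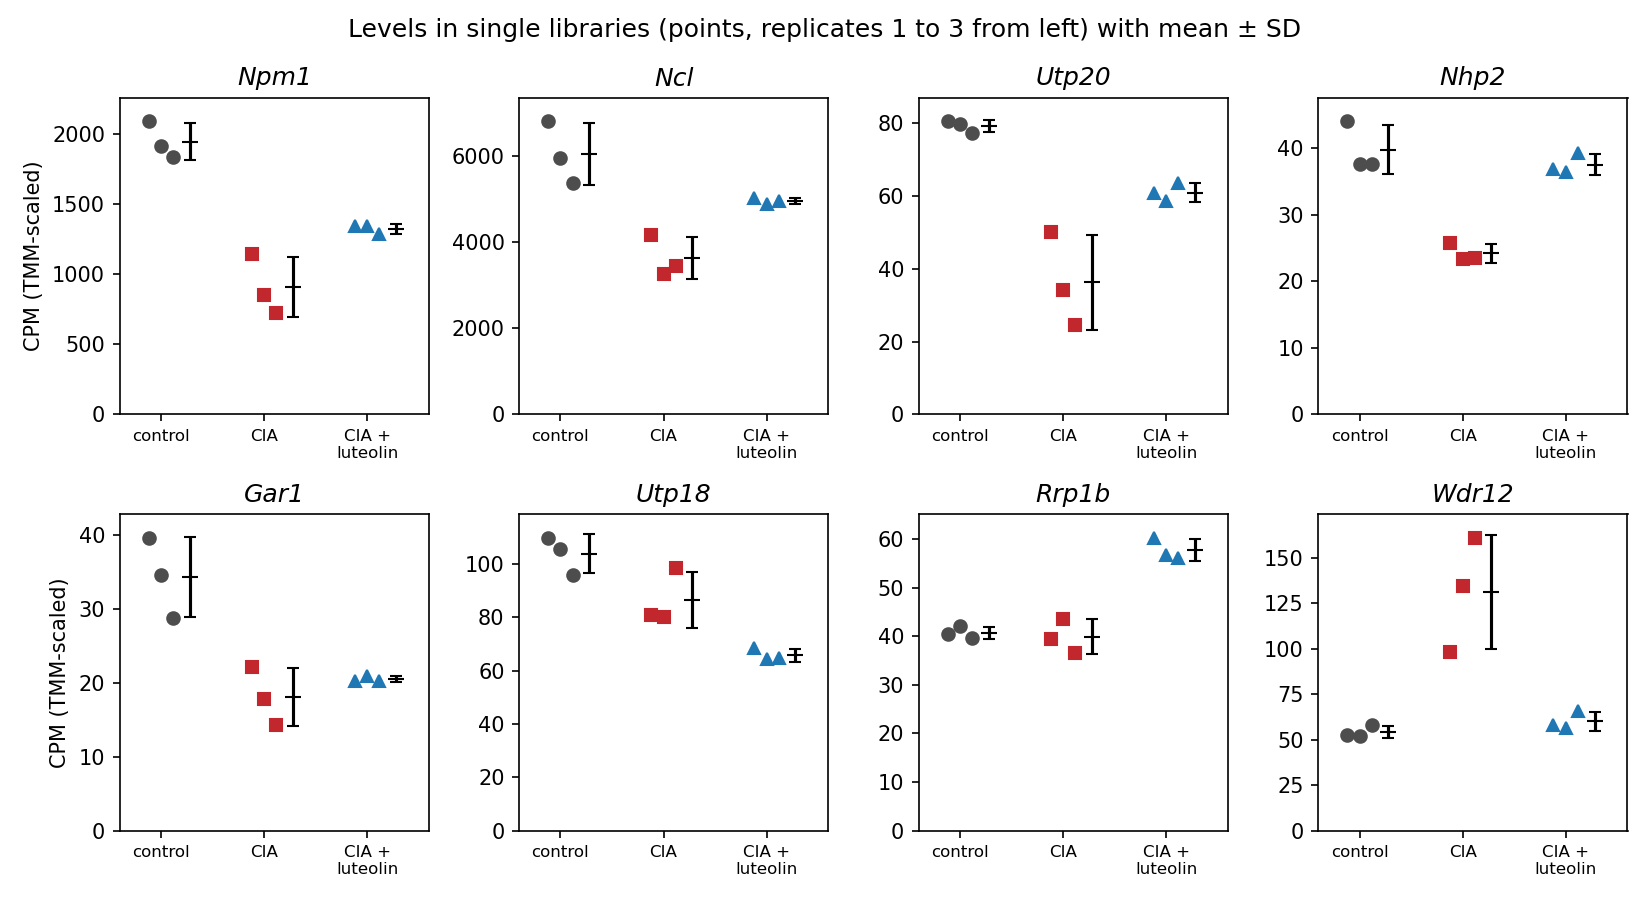
Levels of 8 ribosome biogenesis genes in single libraries, 1 panel per gene, with TMM-scaled CPM on the vertical axis and the 3 groups on the horizontal axis. Points are libraries (circles control, squares CIA, triangles CIA with luteolin) and bars give the mean ± SD of 3; Npm1, Ncl, Utp20 and Nhp2 are lowest in CIA, Gar1 is low in CIA and with luteolin, Utp18 is lowest with luteolin, Rrp1b is highest with luteolin and Wdr12 is highest in CIA.

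Rrs1 and Rpf2 act together in docking the ribonucleoprotein that carries the smallest ribosomal RNA on the large subunit precursor. Rrs1 stood at 80.5, 72.4 and 69.6 CPM in control, 54.96, 45.2 and 50.3 in CIA and 76.1, 72.03 and 73.9 with luteolin. Its level fell in CIA (log2 fold change -0.56 ± 0.09; adjusted p = 0.000649), rose with luteolin against CIA (0.56 ± 0.09; adjusted p = 0.000666), and luteolin overlapped control. Rpf2 was at 18.2, 18.2 and 14.9 CPM in control, 12.9, 10.004 and 9.06 in CIA and 16.8, 15.2 and 14.8 with luteolin, with the same calls (CIA -0.68 ± 0.14, adjusted p = 0.00293; luteolin against CIA 0.55 ± 0.14, adjusted p = 0.00982). Mrto4, which holds the place of the ribosomal stalk during assembly, was at 13.1, 15.1 and 12.2 CPM in control, 9.40, 9.45 and 7.64 in CIA and 13.4, 14.7 and 11.05 with luteolin, and Ebna1bp2, an assembly factor, at 93.7, 90.03 and 80.8, 71.1, 66.2 and 66.3 and 84.9, 87.5 and 85.9 CPM. Both fell in CIA (Mrto4 -0.61 ± 0.14, adjusted p = 0.00509; Ebna1bp2 -0.38 ± 0.08, adjusted p = 0.0026) and rose with luteolin against CIA (Mrto4 0.56 ± 0.14, adjusted p = 0.00821; Ebna1bp2 0.34 ± 0.08, adjusted p = 0.00463).

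Gnl3, which encodes nucleostemin, a nucleolar GTPase known from proliferating cells, stood at 121, 116 and 114 CPM in control, 85.9, 74.2 and 89.5 in CIA and 101, 94.6 and 96.4 with luteolin. The 3 groups did not overlap. In CIA it fell (log2 fold change -0.49 ± 0.08; adjusted p = 0.00083). The luteolin calls were near the threshold: against CIA 0.23 ± 0.08 (adjusted p = 0.0472), lost without CIA replicate 2 (0.15), luteolin replicate 1 (0.21) or luteolin replicate 3 (0.24), and against control -0.27 ± 0.08 (adjusted p = 0.0239), lost without control replicates 1 or 2 (-0.24 and -0.27) or any 1 of luteolin replicates 1 to 3 (-0.29, -0.19 and -0.26). Nop16, an assembly factor, was at 51.1, 50.4 and 51.1 CPM in control, 45.98, 35.4 and 39.3 in CIA and 48.5, 47.1 and 54.1 with luteolin. Its fall in CIA (-0.34 ± 0.10; adjusted p = 0.0187) was lost without control replicate 1 (-0.34) or CIA replicate 2 (-0.26), and its rise with luteolin against CIA (0.31 ± 0.10; adjusted p = 0.0298) without CIA replicate 2 (0.23), luteolin replicate 1 (0.34) or luteolin replicate 3 (0.26).

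Noc2l, a transport and assembly factor, was at 412, 382 and 341 CPM in control, 305, 293 and 319 in CIA and 303, 278 and 272 with luteolin. It was below control in CIA (log2 fold change -0.31 ± 0.08; adjusted p = 0.0109) and with luteolin (-0.41 ± 0.08; adjusted p = 0.00258), and with 14.4% it had the most exonic sequence in common with other genes among the 38. Brix1, an assembly factor, was at 49.3, 44.4 and 45.4 CPM in control, 39.3, 35.5 and 36.95 in CIA and 44.4, 42.004 and 40.8 with luteolin. It fell in CIA (-0.31 ± 0.08; adjusted p = 0.00877), and its luteolin value against CIA (0.19 ± 0.08; adjusted p = 0.0854) passed without CIA replicate 1 (0.23). Nop2, a methyltransferase of the large subunit RNA, was at 90.7, 84.7 and 87.03 CPM in control, 83.4, 87.2 and 88.6 in CIA and 84.6, 76.4 and 81.7 with luteolin, and passed no test. In all, 17 of the 38 genes overlapped another gene's exons, and how the counting treated strand was not given in the sources used here.

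Within groups, the 38 genes varied together. Control replicate 1 was the highest control library for 29 of the 38 genes (76.3%), against 34.6% of all tested genes, CIA replicate 1 the highest CIA library for 26 (68.4%, against 36%), and luteolin replicate 1 the highest luteolin library for 25 (65.8%, against 29.4%). The labels give the replicates no order, and these shares are descriptions of libraries. Replicate 1 also held the most counts of its group, at 40553934 in control, 35670309 in CIA and 41815573 with luteolin. The part of depth in these shares was not tested. CIA replicate 1 was also the CIA library with the fewest neutrophil marker counts (7209 CPM, against 10834 and 12034) and the most B cell marker counts (4311 CPM, against 2973 and 1820.0). In contrast, replicate 1 had the most neutrophil marker counts in control (2640 CPM, against 2297 and 2376) and with luteolin (9441 CPM, against 9030 and 8998). Its B cell marker counts were the most with luteolin (4853 CPM, against 4280 and 4579) and between the others in control (5096 CPM, against 4892 and 5111). The luteolin order was that of Ighm (4345 CPM in replicate 1, against 3689.6 and 4100.3). The median over the 12 B cell markers of log2 CPM minus the control mean was instead highest in luteolin replicate 2 (-2.06, against -2.30 in replicate 1 and -2.33 in replicate 3). The part of these cells in the levels of the 38 genes was not tested. The median coefficient of variation over the 38 genes was 6.98% in control, 13.3% in CIA and 3.96% with luteolin, and over all tested genes 10.4%, 18.9% and 8.72%.

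Other genes of the pathway, from separate lists, gave the setting. For the list counts here and below, the share of all tested genes in CIA against control was 26.6% higher and 24.5% lower. It was 23.1% and 24.2% in luteolin against CIA, and 24.2% and 20.8% in luteolin against control. Of the 79 cytosolic ribosomal protein genes, whose products are built into ribosomes, 78 were lower in CIA than in control, with a median log2 fold change of -0.68, and with luteolin 76 were below control (median -0.61). Between luteolin and CIA 5 were higher and 8 lower (median 0.08). That count of higher genes was 34 without CIA replicate 1, 2 without CIA replicate 2 or luteolin replicate 1, and 3 without CIA replicate 3 or luteolin replicate 2, and the count of lower genes was 5 without luteolin replicate 1 or 2. Whether the assembly factors and the ribosomal proteins differ in their response to luteolin was not tested.

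In CIA against control, 22 of 46 other small subunit factors were lower and 4 higher (median -0.25), 27 of 49 other large subunit factors were lower and 22 did not pass the test (median -0.28), and 7 of 14 genes of the nuclear exosome, which trims precursor RNA, were lower. Of 18 genes of the RNA polymerase I machinery 7 were lower, and 4 were without CIA replicate 2. In luteolin against CIA, 16 of the other small subunit factors were higher and 8 lower (median 0.07), with 8 higher and 5 lower without luteolin replicate 1 and 5 lower without luteolin replicate 2. The other large subunit factors gave 7 higher and 4 lower (median 0.01), or 14.3% and 8.16%, both under the shares of all tested genes (23.1% and 24.2%). In luteolin against control, 17 of the other small subunit factors were lower (9 without luteolin replicate 2, 10 without control replicate 1 or luteolin replicate 3, 11 without luteolin replicate 1) and 3 higher. Of the other large subunit factors 21 were lower (11 without luteolin replicate 2 and 13 without luteolin replicate 1), and 8 of the polymerase machinery were lower (5 without control replicate 1 or 3 or any 1 luteolin replicate).

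Ubtf, the factor that opens ribosomal DNA for RNA polymerase I, was at 443, 419.8 and 372 CPM in control, 220.3, 198 and 155 in CIA and 288, 309.8 and 266 with luteolin, with no overlap. The transcript was lower in CIA (log2 fold change -1.11 ± 0.12; adjusted p = 7.76e-05), rose with luteolin against CIA (0.59 ± 0.12; adjusted p = 0.00279) and was still below control (-0.52 ± 0.12; adjusted p = 0.00623). Of the 18 genes of its list, 2 were higher and 1 lower in luteolin against CIA (median -0.05); the 2 were 1 without CIA replicate 2 or luteolin replicate 1, and the lower count was 3 without CIA replicate 3, and the 1 lower call was lost without any other 1 of the 6 libraries. Rrn3, which recruits the polymerase to initiation, was at 31.8, 33.4 and 31.96, 28.1, 30.7 and 26.3 and 30.9, 28.4 and 29.1 CPM in the same order of groups and passed no test. Myc, the regulator best known for driving these genes, was at 19.4, 16.4 and 19.6 CPM in control, 19.2, 12.1 and 11.5 in CIA and 22.2, 18.7 and 17.6 with luteolin. Its groups overlapped and it passed no test (CIA against control -0.37 ± 0.19, adjusted p = 0.121; luteolin against CIA 0.45 ± 0.19, adjusted p = 0.0688), but both values passed without CIA replicate 1 (-0.65, adjusted p = 0.00163; 0.73, adjusted p = 0.00088). Mxd1, which competes with Myc for Max, was at 149.8, 155 and 157 CPM in control, 332, 454 and 511 in CIA and 379, 389 and 366 with luteolin, and was higher than control in CIA (1.49 ± 0.13; adjusted p = 1.78e-05) and with luteolin (1.30 ± 0.13; adjusted p = 3.25e-05). Mxd4, of the same family of Max partners, went the other way, at 103, 91.4 and 107 CPM in control, 59.8, 46.7 and 48.9 in CIA and 42.8, 38.6 and 39.1 with luteolin (-0.95 ± 0.11 in CIA, adjusted p = 8.02e-05; -1.32 ± 0.11 with luteolin against control, adjusted p = 9.17e-06).

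Mycn, a close relative of Myc, was low throughout, at 0.05002, 0.154 and 0.253 CPM in control, 0.973, 1.29 and 1.32 in CIA and 2.16, 2.37 and 2.26 with luteolin, with no overlap. It had the largest log2 fold change of the 12 genes of the Myc network in CIA (2.995 ± 0.398; adjusted p = 0.000198) and with luteolin against control (3.92 ± 0.38; adjusted p = 2.71e-05). Of the 12 genes, 4 were higher (33.3%) and 3 lower (25%) in CIA than in control, beside 26.6% and 24.5% of all tested genes. With luteolin against control 5 were higher (41.7%) and 4 lower (33.3%), beside 24.2% and 20.8%. In luteolin against CIA 3 were higher (25%) and 6 lower (50%), beside 23.1% and 24.2% of all tested genes. The higher count was 1 without CIA replicate 2, luteolin replicate 1 or luteolin replicate 3. The lower count was 3 without CIA replicate 2 or luteolin replicate 1, and 2 without luteolin replicate 2 or 3.

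Cell division genes changed in the same comparisons. Of 37 such genes, 32 were lower in CIA than in control (median log2 fold change -1.16), 35 were higher with luteolin than in CIA (median 1.77), and 27 were higher with luteolin than in control (median 0.59). Their summed level ranged from 2478 to 2529 CPM in control, from 1079 to 1298 in CIA and from 3815 to 4016 with luteolin. The median of the ribosome biogenesis genes lay below control with luteolin and that of the cell division genes above it; their part in each other's levels was not tested. Of the marker lists, 13 of 16 T cell and 13 of 15 neutrophil markers were higher in CIA than in control, and 8 of 12 B cell and 9 of 14 macrophage and monocyte markers were lower, the B cell count being 5 without CIA replicate 2. Also higher were 6 of 8 megakaryocyte and platelet markers (median log2 fold change 2.07) and 2 of 11 tested erythroid markers. Of 7 tested plasma cell markers, 3 were higher and 2 lower, the lower count being 1 to 4 with 1 library left out. With luteolin against CIA, 13 of 14 macrophage and monocyte markers were higher (median log2 fold change 4.39). Their summed level ranged from 266 to 339.5 CPM in control, from 179 to 238.5 in CIA and from 736.9 to 830.3 with luteolin. Of 15 neutrophil markers, 8 were lower and 6 higher with luteolin than in CIA. Lower calls were also made for 5 of 16 T cell markers (31.2%) and 4 of 12 B cell markers (33.3%), beside 24.2% of all tested genes. Without CIA replicate 1 the T cell count was 10, and without CIA replicate 2 or any 1 luteolin replicate it was 3. The B cell count was 11 without CIA replicate 3, 2 without CIA replicate 2, and 1 without CIA replicate 1 or any 1 luteolin replicate. With luteolin against control, 14 of 16 T cell, 15 of 15 neutrophil and 11 of 14 macrophage and monocyte markers were higher, and 11 of 12 B cell markers lower. There 5 of 8 megakaryocyte and platelet markers were higher (median log2 fold change 2.87). Of 11 tested erythroid markers 2 were higher and 4 lower, the lower count being 2 to 5 with 1 library left out. Of 7 tested plasma cell markers, 3 were higher and 2 lower. The part of these cell types in the levels of the 38 genes was not tested.

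**Figure D4:**
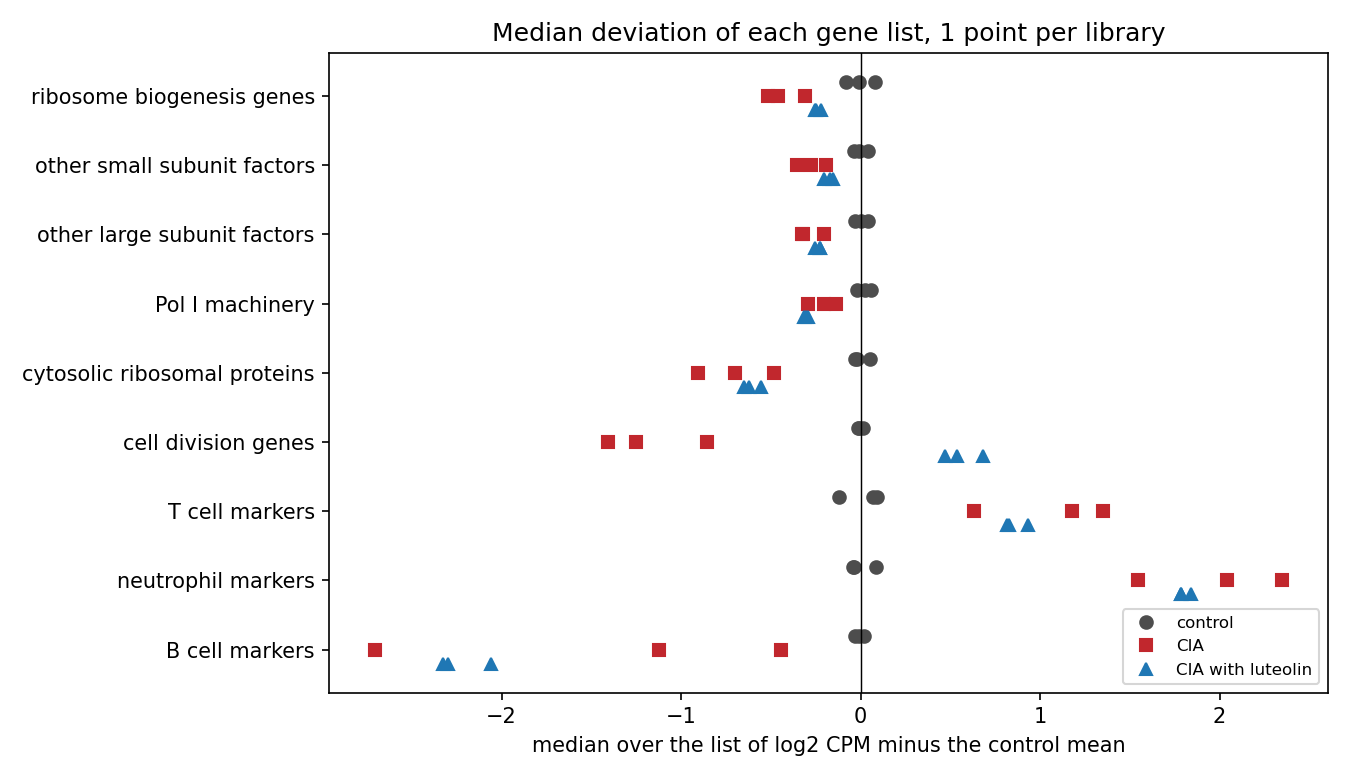
Median over each gene list (vertical axis) of log2 CPM minus the control mean (horizontal axis), 1 point per library. Circles are control, squares CIA and triangles CIA with luteolin; the ribosome biogenesis genes lie between -0.52 and -0.31 in CIA and between -0.25 and -0.22 with luteolin, while the cell division genes lie between -1.41 and -0.86 in CIA and between 0.47 and 0.68 with luteolin.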

How the data were processed

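RNA-seq of 9 libraries was deposited as 1 table of counts per gene. Per the labels' protocols, a stranded mRNA kit was used, reads were aligned by a program written as STRA 2.5.3a and the authors counted reads on exons with featureCounts (Subread 1.5.1). The submitters' processing notes also name Trimmomatic 0.36, edgeR 3.12.1 and build mm39, whereas the protocol names CHOK1GS as the reference. The strand setting of the counting is not given in the sources used here.

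From the deposited counts, edgeR 4.0.16 (R 4.3.3) was run with TMM scaling and filterByExpr, group as the only term over all 9 libraries, and 2-sided quasi-likelihood tests with Benjamini-Hochberg adjustment over 19348 genes at 0.05. SE is the log2 fold change over the root of F. The scripts were tested on simulated data. Alternatives were DESeq2 1.42.0, other scalings, no filter, the 6 libraries compared, a replicate block and leaving out each library. The members and gene lists were chosen with earlier results of these data known. Genes of other lists were named by size of change, at most 2 each way per list, plus named regulators and markers.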

Additional observations from a re-analysis of the deposited data

How the results depend on the processing

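The 38 genes were refitted 456 times per comparison, each gene under 12 alternative settings. In CIA against control 419 refits kept their direction and side of the threshold, 29 lost a call, 4 gained one and 4 changed sign. In luteolin against CIA the numbers were 400, 20, 22 and 14, and in luteolin against control 385, 42, 13 and 16. The median over the 38 genes for CIA against control was between -0.49 (without CIA replicate 1) and -0.35 when 1 library was left out, with 24 to 30 calls, 23 to 29 of them lower and 1 to 1 higher. For luteolin against CIA the median was between 0.21 and 0.37, with 16 to 28 calls, 12 to 23 higher and 2 to 5 lower. For luteolin against control the median was between -0.28 and -0.18, with 7 to 14 calls, 6 to 13 lower and 1 to 1 higher, and with only the 6 libraries compared there were 23 calls, 22 of them lower, beside 15 and 14. Over all genes tested in luteolin against control, 58.2% were called with only the 6 libraries, beside 45% in the main fit. With 1 library left out the share was 34.1% to 37.7%. The cause of these shifts was not tested. With another tool, scaling or filter, or with only the 6 libraries compared, calls were lost for Utp18, Ddx21 and Ddx10 in CIA against control, for Nop58, Nop16, Bop1 and Gnl3 in luteolin against CIA, and for Nop56, Ncl, Gnl3 and Ddx10 in luteolin against control. Under the same settings Fbl, Nolc1, Noc4l, Mybbp1a, Dkc1, Nat10 and Rrp9 gained calls in luteolin against CIA, and Fbl and Utp20 were among those that did in luteolin against control.

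Genes that changed sign did not pass the test and lay near 0, as log2 fold changes. In CIA against control these were Nop2 (-0.0469 to 0.0027 with 1 library left out), Rrp1b (-0.1019 to 0.0332 with 1 library left out) and Polr1a (-0.0217 to 0.1093 with 1 library left out). In luteolin against CIA these were Wdr75 (-0.0168 to 0.2452 with 1 library left out), Ddx10 (0.0100 with DESeq2, 0.0100 with RLE scaling, 0.0207 with no filter, 0.0308 with the 6 libraries compared, -0.0377 to 0.0576 with 1 library left out), Rrn3 (-0.0087 with upper-quartile scaling, -0.0016 to 0.1317 with 1 library left out), Polr1b (-0.0407 with upper-quartile scaling, -0.0672 to 0.1477 with 1 library left out) and Nop10 (-0.0627 with upper-quartile scaling, -0.1191 to 0.1061 with 1 library left out). In luteolin against control these were Rrs1 (0.0185 with DESeq2, 0.0187 with RLE scaling, 0.0114 with no filter, -0.0475 to 0.0718 with 1 library left out), Nop16 (-0.0862 to 0.0663 with 1 library left out), Heatr1 (0.0024 with DESeq2, 0.0023 with RLE scaling, -0.0592 to 0.0264 with 1 library left out), Myc (-0.0173 to 0.1654 with 1 library left out), Mrto4 (-0.1125 to 0.0632 with 1 library left out) and Ebna1bp2 (-0.0938 to 0.0121 with 1 library left out).

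The replicate numbers of the labels were checked for pairing. The correlation of deviations between same-numbered libraries was between 0.0151 and 0.126, so small but positive in each pair. The labels give only the number, and these values cannot settle whether same-numbered libraries share more than that. Every library correlated best with its own number for CIA against control and luteolin against control, and not for luteolin against CIA, which is a hint from the data and not from the design. A fit with the replicate number as a block gave 29 calls with a median of -0.41 in CIA against control, 23 calls with a median of 0.27 in luteolin against CIA, and 16 calls with a median of -0.23 in luteolin against control. Among the 38 genes the block changed 6 calls. Fbl passed in luteolin against CIA (0.46; adjusted p = 0.00221) and in luteolin against control (-0.44; 0.00284), as did Nolc1 (0.22; 0.0282) and Mybbp1a (0.39; 0.0352) in luteolin against CIA and Wdr75 in CIA against control (-0.31; 0.0469), where Utp18 was lost (-0.27; 0.0588). Myc also passed with the block, both in CIA against control (-0.40; 0.0454) and for luteolin against CIA (0.47; 0.025). At 31234177 or more counts a library, depth limited Nop10 most among the 38 genes, at 78 to 194 counts.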
